A study of Mus musculus with 8 samples.

Results

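The chemokines described here are 10 genes of secreted attractants for leukocytes, the inflammatory Ccl2, Ccl3, Ccl4, Ccl5, Cxcl2 and Cxcl10 and the homeostatic Cxcl12, Cxcl13, Ccl19 and Ccl21a. They were found by matching the Ensembl identifiers of the count table to these symbols in GENCODE M21, and all 10 were present among the 51826 genes of the table. RNA sequencing had been done on total splenocytes of 8 female Balb/c mice, with 1 library per mouse, to ask what all-trans retinoic acid (tRA), the active metabolite of vitamin A, does to gene expression before lupus is induced. The 4 tRA mice were dosed by mouth at 1 mg/kg body weight daily from 3 weeks of age until harvest at 3 months of age, and the 4 control mice of the same strain, sex and age were given the canola oil vehicle according to the methods. The sample labels carry the tRA dosing text for all 8 libraries, so the groups rest on the titles, which call each library tRA treated or control. None of the 8 mice had been injected with pristane, the hydrocarbon that induces lupus in this strain, and red blood cells had been lysed during cell isolation. Counts on genes totaled between 30919272 and 37539631 per library in the control group and between 31810417 and 35165876 in the tRA group, and levels are in CPM, which divides counts by the adjusted total of their library. A level of 1 CPM stood for 31.0 to 37.0 counts.

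Chemokines act through G protein-coupled receptors on leukocytes and direct where these cells move. The inflammatory ones are made on activation by macrophages, neutrophils, T cells and natural killer cells, largely under NF-kB, AP-1 and interferon control. The homeostatic ones are made without inflammation, mainly by the stromal cells of lymphoid organs, and they hold the B cell follicles and T cell zones of the spleen in place. Stromal cells sit in a fibrous network, and a suspension of splenocytes holds few of them.

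The suspension carried the markers of the labelled tissue. Cd79a, the signaling chain of the B cell receptor, was the most abundant of 5 B cell genes, which summed to 5358, 4672, 4800.5 and 4228 CPM in control mice 1 to 4 and 4907, 4798, 4649.8 and 4612 CPM in tRA mice 1 to 4. Trac, the T cell receptor alpha constant gene, led 5 T cell genes that summed to 866, 861, 979.6 and 1045 CPM in control mice 1 to 4 and 1060.1, 977, 1022 and 1037 CPM in tRA mice 1 to 4. Both lists overlapped between the groups, with a median log2 fold change of 0.0045 for B cell genes and 0.12 for T cell genes.

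Of the 10 chemokines, 8 passed the filter on low counts and were compared between tRA and control with the other genes, and Ccl19 and Ccl21a did not. By edgeR's quasi-likelihood test over 16484 genes, 0 of the 8 had a false discovery rate (FDR) under 0.1, and 0 had an unadjusted p under 0.05. Over all genes tested, 0 (0%) had an FDR under 0.1 and 1070 (6.49%) had an unadjusted p under 0.05, of which 585 (3.55%) were lower and 485 (2.94%) higher with tRA. DESeq2, which tested all 10 chemokines, called 27 genes at the same FDR, and limma-voom, which tested 8 of them, called 1. Neither called a chemokine that it tested. The log2 fold change, tRA over control, was below 0 for 4 of the 8 and above 0 for 4, as against 8194 genes (49.7%) below 0 among all genes. The groups overlapped for each of the 8, whereas all tRA mice lay below all control mice for 269 genes (1.63%) and above them for 315 (1.91%). In bulk samples, a difference in the number of cells of a type and a difference in RNA per cell cannot be told apart.

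Ccl3 (ENSMUSG00000000982, chromosome 11, 83647844 to 83649355, minus strand) and Ccl4 (ENSMUSG00000018930, chromosome 11, 83662584 to 83664683, plus strand) encode the macrophage inflammatory proteins 1-alpha and 1-beta. Ccl3, which binds Ccr1, was at 38.5, 40.3, 44.5 and 37.0 CPM in control mice 1 to 4 and 58.4, 39.3, 20.8 and 26.6 CPM in tRA mice 1 to 4. Ccl4 was at 26.2, 25.0, 25.3 and 24.0 CPM in control mice 1 to 4 and 36.6, 24.1, 9.60 and 10.6 CPM in tRA mice 1 to 4. For both genes tRA mouse 1 was the highest of all 8, tRA mice 3 and 4 were the lowest, and tRA mouse 2 lay among the control mice. Ccl3 averaged 40.1 ± 3.26 CPM (SD, n = 4) in the control group and 36.3 ± 16.6 CPM (SD, n = 4) in the tRA group, a log2 fold change of -0.15 (standard error 0.255, 95% interval -0.71 to 0.42, FDR 0.920 by the quasi-likelihood test of edgeR, Benjamini-Hochberg adjusted). Ccl4 averaged 25.1 ± 0.920 CPM (SD, n = 4) in the control group and 20.2 ± 12.8 CPM (SD, n = 4) in the tRA group, a log2 fold change of -0.31 (standard error 0.351, 95% interval -1.09 to 0.46, FDR 0.872 by the quasi-likelihood test of edgeR, Benjamini-Hochberg adjusted). Neither difference exceeded the spread between mice (two-sided exact permutation test, p = 0.457 for Ccl3 and 0.343 for Ccl4, with n = 4 in each group and 0.0286 as the smallest p the design allows). The control mice lay close together. The standard deviation of log2 CPM for Ccl4 was 0.0529 in the control group and 0.932 in the tRA group, with medians of 0.185 and 0.176 over all genes tested. In the tRA group 265 of 16483 other genes (1.61%) had a standard deviation at least as large as that of Ccl4, and in the control group 94.8% had. For Ccl3 the standard deviation was 0.115 in the control group and 0.651 in the tRA group, and 6.22% of the other genes reached the latter. The difference in spread between the groups was not tested. Without tRA mouse 1 the log2 fold change was -0.47 for Ccl3 and -0.77 for Ccl4, with an FDR of 0.324 and 0.290 by the quasi-likelihood test of edgeR, Benjamini-Hochberg adjusted. Over 17 alternatives the FDR of Ccl4 was nowhere lower than 0.290 and its log2 fold change ran from -0.77 to -0.075. For Ccl3 the log2 fold change was 0.046 without tRA mouse 3 and 0.10 without control mouse 3 and tRA mouse 3, a setting chosen after seeing the data.

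**Figure D1:**
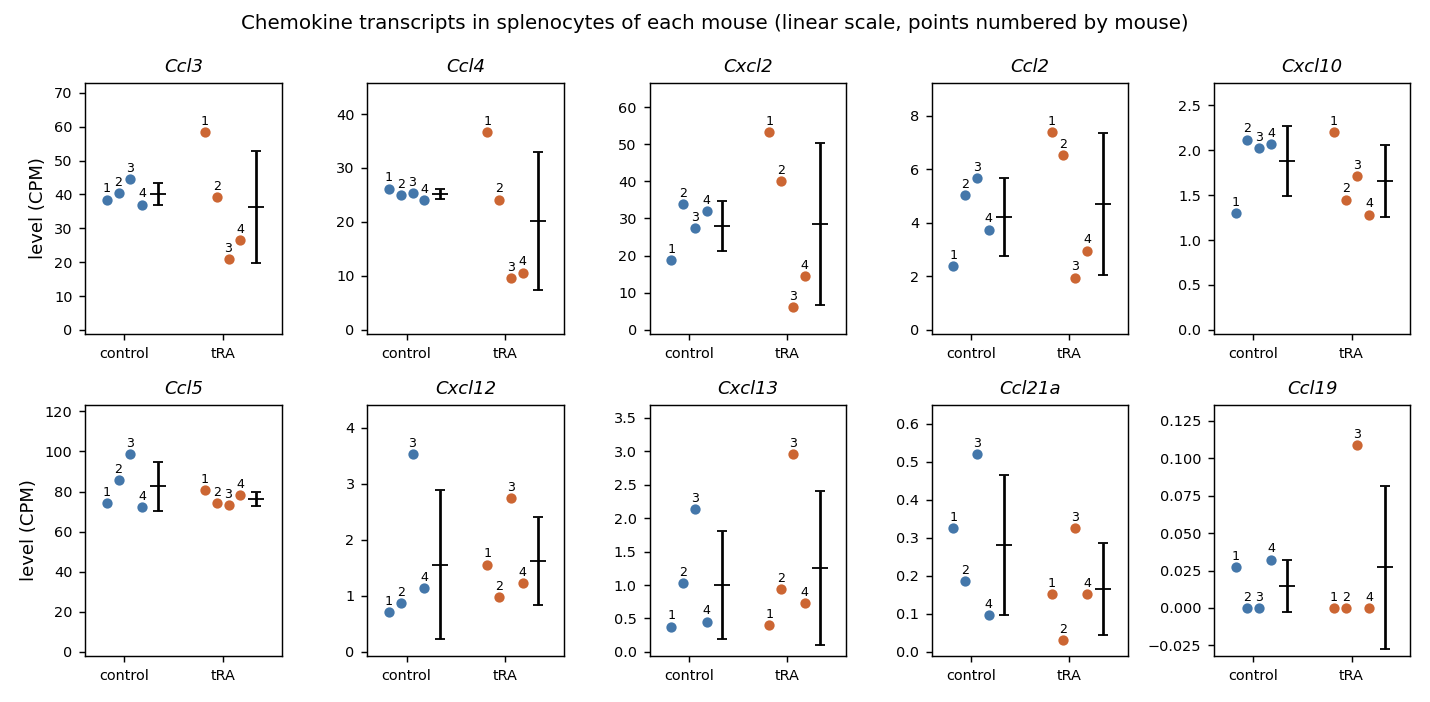
Level in CPM of each of the 10 chemokines in the 4 control mice (blue) and the 4 tRA mice (orange), each point 1 mouse labelled with its number, and beside each group its mean with a bar of 1 SD. Each panel has its own linear axis. Ccl4 spans 24.0 to 26.2 CPM in control mice and 9.60 to 36.6 CPM in tRA mice, while mouse 3 of each group is the highest of its group for Cxcl12, Cxcl13 and Ccl21a.

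Cxcl2 (ENSMUSG00000058427, chromosome 5, 90903871 to 90905938, plus strand), a neutrophil attractant that acts on Cxcr2, was at 18.7, 33.9, 27.3 and 32.1 CPM in control mice 1 to 4 and 53.2, 40.0, 6.24 and 14.5 CPM in tRA mice 1 to 4. The control mice spanned 1.81-fold and the tRA mice 8.53-fold, with tRA mice 1 and 2 above and tRA mice 3 and 4 below every control mouse. Cxcl2 averaged 28.0 ± 6.78 CPM (SD, n = 4) in the control group and 28.5 ± 21.9 CPM (SD, n = 4) in the tRA group, a log2 fold change of 0.02 (standard error 0.505, 95% interval -1.09 to 1.14, FDR 0.995 by the quasi-likelihood test of edgeR, Benjamini-Hochberg adjusted). Its standard deviation of log2 CPM in the tRA group was 1.41, which 37 of the other genes (0.224%) equalled or exceeded, and in the control group it was 0.385. The sign of its fold change was not stable. It was -0.41 by limma-voom, -0.35 with the replicate number as a block, -0.47 without tRA mouse 1 and 0.36 without tRA mouse 3.

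Ccl2 (ENSMUSG00000035385, chromosome 11, 82035571 to 82037453, plus strand), the monocyte attractant that acts on Ccr2, was at 2.38, 5.04, 5.66 and 3.75 CPM in control mice 1 to 4 and 7.39, 6.55, 1.95 and 2.96 CPM in tRA mice 1 to 4. From low to high the mice ran as tRA 3, control 1, tRA 4, control 4, control 2, control 3, tRA 2 and tRA 1, so that the control mice lay between the extremes of the tRA group. Ccl2 averaged 4.21 ± 1.46 CPM (SD, n = 4) in the control group and 4.71 ± 2.66 CPM (SD, n = 4) in the tRA group, a log2 fold change of 0.16 (standard error 0.402, 95% interval -0.73 to 1.05, FDR 0.952 by the quasi-likelihood test of edgeR, Benjamini-Hochberg adjusted). It was -0.036 without control mouse 1, -0.14 without tRA mouse 1 and -0.040 without tRA mouse 2, and it was highest, at 0.60, without control mouse 3 and tRA mouse 3, a setting chosen after seeing the data. The differences of mean log2 CPM were within the spread between mice for both genes (two-sided exact permutation test, p = 0.657 for Cxcl2 and 0.943 for Ccl2, n = 4 in each group).

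Ccl3, Ccl4, Cxcl2 and Ccl2 thus put the tRA mice in the same order. The likeness of 2 genes was measured as the root mean square difference of their log2 CPM, each centred on its mean over the 8 mice, and is given as a description. It was 0.249 for Ccl3 and Ccl4, the closest pair among the 8 chemokines tested, 0.385 for Ccl2 and Ccl3, 0.438 for Ccl2 and Cxcl2, 0.461 for Ccl4 and Cxcl2, 0.477 for Ccl2 and Ccl4, and 0.552 for Ccl3 and Cxcl2. Pairs outside these 4 were as near, with 0.265 for Ccl5 and Cxcl10, 0.382 for Ccl3 and Cxcl10 and 0.386 for Ccl3 and Ccl5, so the value alone does not set the 4 apart. Of 16483 other genes, 257 were closer to Ccl3 than Ccl4 was and 11897 than Cxcl2 was, 31 were closer to Ccl2 than Ccl3 was, 98 than Cxcl2 was and 214 than Ccl4 was, and 700 were closer to Ccl4 than Cxcl2 was. For the outside pairs, 9597 were closer to Ccl5 than Cxcl10 was, and 3238 and 3431 were closer to Ccl3 than Cxcl10 and Ccl5 were. All points share the same 8 libraries.

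The genes whose pattern was most like that of these 4 were found among all genes tested. For Ccl4 they were Nfkbid (0.0837), Tagap (0.0951) and Dusp5 (0.0991), and for Cxcl2 they were Atf3 (0.292), Kdm6bos (0.349) and Ccrl2 (0.354). For Ccl3 they were Hexim1 (0.113), Coq10b (0.116) and Pnrc1 (0.118), and for Ccl2 they were Gm10655 (0.173), Gm33023 (0.218) and Clec4e (0.248). Nfkbid, which encodes an NF-kB regulator of the IkB family, was at 485, 449.6, 461 and 472 CPM in control mice 1 to 4 and 677, 444, 156 and 177 CPM in tRA mice 1 to 4. Its values in tRA mice 3 and 4 were under those in every other mouse, as for Ccl4.

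Immediate early and heat shock genes, which respond within minutes to stimulation or to handling of cells, were set beside these chemokines as a list of 15. Their log2 fold change was below 0 for 15 of 15, with a median of -0.52, beside a median of 0.0014 over all genes tested. With 1 library left out, their median ran from -0.89 without tRA mouse 1 to -0.29 without tRA mouse 3. By edgeR, 0 had an FDR under 0.1, 7 had an unadjusted p under 0.05, and 5 had all tRA mice below all control mice. Their levels summed to 23137, 21713, 23771 and 20130.0 CPM in control mice 1 to 4 and 21017, 17735, 8819.6 and 12210.0 CPM in tRA mice 1 to 4, with Fos, a subunit of AP-1, as the most abundant and no gene at 0. Fos was at 3337, 3230.3, 3302 and 2866 CPM in control mice 1 to 4 and 3563, 2762, 1117 and 1420.1 CPM in tRA mice 1 to 4, and Atf3, a stress-induced transcription factor, was at 79.1, 110.4, 114 and 93.1 CPM in control mice 1 to 4 and 141, 101, 19.5 and 34.5 CPM in tRA mice 1 to 4. Both were lowest in tRA mice 3 and 4, like Ccl3, Ccl4 and Cxcl2. Hspa1a, a heat shock chaperone, was at 412, 317, 942 and 387 CPM in control mice 1 to 4 and 127, 296, 77.3 and 307 CPM in tRA mice 1 to 4, and here tRA mouse 1 was low as well. The part of these genes in the spread of the chemokines was not tested.

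Markers of monocytes and macrophages, of neutrophils and of neutrophil precursors, summed by list, did not take the order of Ccl2, Ccl3, Ccl4 and Cxcl2 over the mice. The 9 monocyte and macrophage genes, led by Csf1r, the receptor for macrophage colony-stimulating factor, summed to 456, 689.8, 570.0 and 510.5 CPM in control mice 1 to 4 and 425, 598, 748 and 630.5 CPM in tRA mice 1 to 4. Tested in full, they had 5 log2 fold changes above 0 and 4 below, with a median of 0.02 and 0 genes at an unadjusted p under 0.05 by edgeR. Their sum was highest in tRA mouse 3, where Ccl2, Ccl3, Ccl4 and Cxcl2 were lowest. C5ar1 was the only gene of this list with its highest value in tRA mouse 1 (20.1 CPM) and its lowest in tRA mouse 3 (7.81 CPM). The 8 neutrophil genes, led by Csf3r, the receptor for granulocyte colony-stimulating factor, summed to 562, 927, 731 and 712 CPM in control mice 1 to 4 and 654, 598, 478 and 850.0 CPM in tRA mice 1 to 4. Their median log2 fold change was -0.27, with 6 below 0 and 3 of these at an unadjusted p under 0.05 by edgeR. It was -0.12 without tRA mouse 3 and -0.50 without tRA mouse 4. The sum of the neutrophil genes was lowest in tRA mouse 3, as Ccl2, Ccl3, Ccl4 and Cxcl2 were, and highest in control mouse 2. The 8 neutrophil precursor genes, led by the granule protein gene Ngp, summed to 503, 632, 674 and 573 CPM in control mice 1 to 4 and 227, 279, 311 and 439 CPM in tRA mice 1 to 4. For this list 8 of 8 were below 0 with a median of -0.90, 7 had an unadjusted p under 0.05 and 6 had all tRA mice below all control mice, and 0 had an FDR under 0.1 by edgeR. Their lowest library was tRA mouse 1, the mouse with the highest Ccl3, Ccl4, Cxcl2 and Ccl2. No gene of these lists was at 0 in all libraries, and the part of neutrophils or monocytes in the chemokine levels was not tested.

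Ccl5 (ENSMUSG00000035042, chromosome 11, 83525778 to 83530518, minus strand), made by natural killer cells and memory T cells and bound by Ccr1 and Ccr3, was at 74.3, 85.8, 98.6 and 72.1 CPM in control mice 1 to 4 and 80.5, 74.1, 73.2 and 78.1 CPM in tRA mice 1 to 4. All 8 mice lay within 1.37-fold, and control mice 2 and 3 were the highest. Ccl5 averaged 82.7 ± 12.2 CPM (SD, n = 4) in the control group and 76.5 ± 3.45 CPM (SD, n = 4) in the tRA group, a log2 fold change of -0.11 (standard error 0.0971, 95% interval -0.33 to 0.10, FDR 0.838 by the quasi-likelihood test of edgeR, Benjamini-Hochberg adjusted), with p = 0.457 in the exact permutation test (two-sided, n = 4 in each group). With 1 library left out it ran from -0.17 to -0.024, the latter without control mouse 3, and it was 0.0033 without control mouse 3 and tRA mouse 3, a setting chosen after seeing the data. Its standard deviation of log2 CPM was 0.208 in the control group and 0.0648 in the tRA group, where 89.0% of the other genes varied at least as much. The 10 natural killer and cytotoxic T cell genes, led by the protease gene Gzma, summed to 522, 692, 782 and 635 CPM in control mice 1 to 4 and 624, 708, 721 and 637 CPM in tRA mice 1 to 4. Of these, 5 had a log2 fold change above 0 and 5 below, with a median of -0.0092 and 0 at an unadjusted p under 0.05 by edgeR. Control mouse 3 was the highest in both Ccl5 and this sum.

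Cxcl10 (ENSMUSG00000034855, chromosome 5, 92346638 to 92348889, minus strand), an interferon-induced attractant of Cxcr3-bearing T cells, was at 1.30, 2.12, 2.02 and 2.07 CPM in control mice 1 to 4 and 2.20, 1.45, 1.71 and 1.28 CPM in tRA mice 1 to 4. It rested on 42 to 72 counts per library, control mouse 1 lay apart from the other control mice, and the groups overlapped. Cxcl10 averaged 1.88 ± 0.387 CPM (SD, n = 4) in the control group and 1.66 ± 0.400 CPM (SD, n = 4) in the tRA group, a log2 fold change of -0.17 (standard error 0.236, 95% interval -0.69 to 0.35, FDR 0.891 by the quasi-likelihood test of edgeR, Benjamini-Hochberg adjusted), with p = 0.486 in the exact permutation test (two-sided, n = 4 in each group). The value stayed below 0 in each of 17 alternatives, from -0.34 to -0.069. Cxcl9, another ligand of Cxcr3, was at 6.44, 6.50, 5.75 and 7.50 CPM in control mice 1 to 4 and 4.25, 5.10, 5.80 and 5.29 CPM in tRA mice 1 to 4. Its log2 fold change was -0.36 at an unadjusted p of 0.0274 by edgeR (FDR 0.757 with Benjamini-Hochberg adjustment), and control mouse 3 and tRA mouse 3 overlapped.

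Cxcl12 (ENSMUSG00000061353, chromosome 6, 117168535 to 117181367, plus strand), the ligand of Cxcr4 that retains leukocytes in bone marrow and splenic red pulp, was at 0.704, 0.872, 3.52 and 1.13 CPM in control mice 1 to 4 and 1.56, 0.976, 2.74 and 1.22 CPM in tRA mice 1 to 4. Cxcl13 (ENSMUSG00000023078, chromosome 5, 95956951 to 95961068, plus strand), which draws Cxcr5-bearing B cells into follicles, was at 0.379, 1.03, 2.14 and 0.452 CPM in control mice 1 to 4 and 0.397, 0.945, 2.96 and 0.733 CPM in tRA mice 1 to 4. In both, mouse 3 of each group stood highest, and the other 6 mice of the groups were intermixed. Cxcl12 rested on 26 to 122 counts per library and averaged 1.56 ± 1.32 CPM (SD, n = 4) in the control group and 1.62 ± 0.781 CPM (SD, n = 4) in the tRA group, a log2 fold change of 0.06 (standard error 0.506, 95% interval -1.05 to 1.18, FDR 0.986 by the quasi-likelihood test of edgeR, Benjamini-Hochberg adjusted). Cxcl13 rested on 13 to 109 counts and averaged 0.999 ± 0.813 CPM (SD, n = 4) in the control group and 1.26 ± 1.15 CPM (SD, n = 4) in the tRA group, a log2 fold change of 0.34 (standard error 0.653, 95% interval -1.10 to 1.78, FDR 0.927 by the quasi-likelihood test of edgeR, Benjamini-Hochberg adjusted). Neither exceeded the spread between mice (two-sided exact permutation test, p = 0.629 for Cxcl12 and 0.743 for Cxcl13, n = 4 in each group). Both values depended on single libraries. For Cxcl12 it was 0.85 without control mouse 3 and -0.32 without tRA mouse 3, and for Cxcl13 it was 1.03 and -0.53.

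Ccl21a (ENSMUSG00000094686, chromosome 4, 42772860 to 42773993, minus strand) and Ccl19 (ENSMUSG00000071005, chromosome 4, 42754525 to 42756577, minus strand) encode the ligands of Ccr7 that gather T cells and dendritic cells in T cell zones. Ccl21a had 12, 6, 18 and 3 counts in control mice 1 to 4 and 5, 1, 12 and 5 counts in tRA mice 1 to 4. Control mouse 3 had the most, as for Cxcl12, followed by control mouse 1 and tRA mouse 3, and the groups overlapped. Ccl19 had 1, 0, 0 and 1 counts in control mice 1 to 4 and 0, 0, 4 and 0 counts in tRA mice 1 to 4. It had no count in 5 of 8 libraries, where a count of 0 allows up to 3 counts, or 0.0867 to 0.0945 CPM. These limits cover counting error only, and a difference in Ccl19 was not detectable at this depth. Fitted without the filter on low counts, Ccl21a had a log2 fold change of -0.74 and Ccl19 one of 0.81 (FDR 0.753 and 0.902 by the quasi-likelihood test of edgeR, Benjamini-Hochberg adjusted).

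The markers of stromal cells were scarce in the same libraries. Of 9 genes of fibroblastic reticular cells, which make Ccl19 and Ccl21a in T cell zones, 4 passed the filter and Lum had no count in any library. The 9 summed to 3.55, 4.76, 5.92 and 4.43 CPM in control mice 1 to 4 and 4.28, 3.75, 5.86 and 3.45 CPM in tRA mice 1 to 4. Their most abundant gene was Pdgfrb, the platelet-derived growth factor receptor beta, and the defining marker Pdpn had no count in 5 libraries and at most 0.108 CPM in the others. Among the 4 tested, 2 log2 fold changes were above 0 and 2 below, with a median of -0.09. The sum was highest in control mouse 3 and tRA mouse 3, the mice with the most Cxcl12 and Cxcl13. The 7 genes of follicular dendritic cells, which make Cxcl13, were led by Cr2, a complement receptor that B cells carry too, and summed to 942, 961, 850.5 and 990.5 CPM in control mice 1 to 4 and 829.7, 963, 916 and 1007 CPM in tRA mice 1 to 4. Of these 7, 3 were above 0 and 4 below with a median of -0.02, and 1, Bst1, had all tRA mice above all control mice. Their sum, most of it Cr2, did not peak in mouse 3 of either group. Clu, which encodes clusterin, did, at 2.25, 2.68, 3.79 and 2.91 CPM in control mice 1 to 4 and 1.89, 2.30, 4.28 and 1.83 CPM in tRA mice 1 to 4, and the mean centred log2 CPM of the 7 was highest in tRA mouse 3 (0.19) and lowest in control mouse 3 (-0.12).

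Of 6 endothelial genes, 4 passed the filter, all 4 with a log2 fold change above 0 and a median of 0.14, which was -0.05 without tRA mouse 3. The 6 summed to 256, 272, 271 and 250.5 CPM in control mice 1 to 4 and 256, 262, 283 and 264 CPM in tRA mice 1 to 4. The adhesion molecule gene Pecam1 was the most abundant, at a mean of 240 CPM, and no gene was at 0 in all libraries. Most of the sum was therefore Pecam1, and it shows little of the other endothelial genes. Kdr, the main endothelial receptor for vascular endothelial growth factor, was at 1.30, 3.36, 5.23 and 2.52 CPM in control mice 1 to 4 and 3.27, 2.42, 6.70 and 3.18 CPM in tRA mice 1 to 4, and again mouse 3 of each group was highest. The 5 erythroid genes, led by the globin gene Hbb-bs, summed to 758, 1480.5, 2243 and 481 CPM in control mice 1 to 4 and 2134, 603, 3421 and 573 CPM in tRA mice 1 to 4. Tested in full, 5 of 5 were above 0 with a median of 0.43, but it was -0.16 without tRA mouse 3, so its sign rested on 1 library. The highest sum was in mouse 3 of each group. By edgeR, 0 genes of these 4 lists had an unadjusted p under 0.05. The share of stromal, endothelial or red cells in the levels of Cxcl12, Cxcl13 and Ccl21a was not tested.

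**Figure D2:**
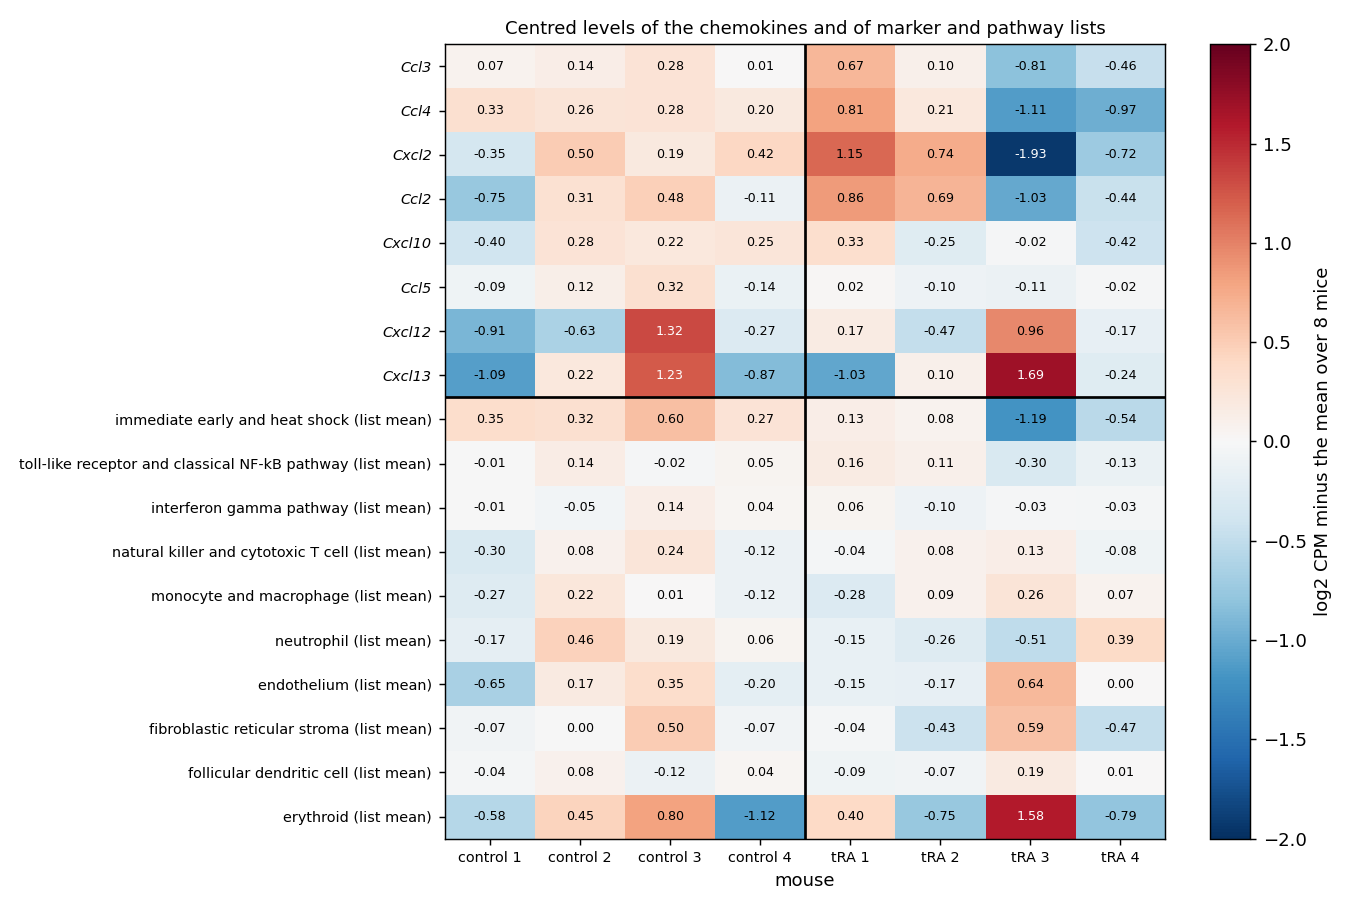
Centred log2 CPM (value minus the mean over 8 mice, color scale and printed numbers) of the 8 chemokines tested, above the line, and the mean over the tested genes of 10 marker or pathway lists, below it, in each of the 8 mice. Ccl3, Ccl4, Cxcl2 and Ccl2 are below their mean in tRA mice 3 and 4, as are the immediate early and heat shock genes, whereas Cxcl12 and Cxcl13 are highest in control mouse 3 and tRA mouse 3.

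The pattern of the stromal chemokines was also compared with all genes. Nearest to Cxcl12 were Gm8221 (0.268), Cldn5 (0.297), which encodes an endothelial tight junction protein, and Vangl1 (0.324). Nearest to Cxcl13 were C4b (0.323), a complement component, and Slc6a9 (0.399), a glycine transporter. C4b was at 2.38, 4.01, 15.9 and 2.59 CPM in control mice 1 to 4 and 3.51, 6.39, 17.5 and 5.77 CPM in tRA mice 1 to 4, with mouse 3 of each group highest. Cxcl12 and Cxcl13 differed from each other by 0.654. Nearest to Cxcl10 were Spx (0.122), Gm29361 (0.140) and Msgn1 (0.149), all, like Cxcl10, with few counts. Ccl5 varied too little over the mice for a nearest gene to be given.

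The receptors of the chemokines were measured in the same cells. Of 19 chemokine receptor genes, 17 passed the filter, 12 with a log2 fold change above 0 and 5 below, and a median of 0.16. By edgeR, 0 had an FDR under 0.1, 1 was higher and 2 lower at an unadjusted p under 0.05, and 1, Ccr10, had all tRA mice below all control mice. Cxcr4, the receptor for Cxcl12 and the receptor gene with the highest level per length (555 CPM per kb of exon), was at 1540.1, 1108, 952 and 1029 CPM in control mice 1 to 4 and 1629, 1111, 259.9 and 404 CPM in tRA mice 1 to 4. Its order over the tRA mice was that of Ccl4, with tRA mice 3 and 4 far under the rest, and its log2 fold change was -0.44 (FDR 0.864 by edgeR with Benjamini-Hochberg adjustment). Ccr7, the receptor for Ccl19 and Ccl21a, was at 315, 228, 240.2 and 250.0 CPM in control mice 1 to 4 and 435, 253, 184 and 169 CPM in tRA mice 1 to 4, a log2 fold change of 0.01. The highest and the lowest values of Ccr7 were both in tRA mice. Cxcr5, the receptor for Cxcl13, was at 243, 237, 257 and 273 CPM in control mice 1 to 4 and 294, 267, 288 and 243 CPM in tRA mice 1 to 4, a log2 fold change of 0.11. These mice were closely alike in Cxcr5 and the groups overlapped.

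Receptors for the inflammatory chemokines were measured as well. Ccr2, the receptor for Ccl2, was at 34.8, 75.5, 66.8 and 42.6 CPM in control mice 1 to 4 and 55.9, 64.1, 73.3 and 71.8 CPM in tRA mice 1 to 4, a log2 fold change of 0.27, and tRA mouse 3, lowest in Ccl2, was among the highest in Ccr2. Log2 fold changes were 0.16 for Ccr1, which binds Ccl3, 0.39 for Cxcr2 and 0.17 for Cxcr3, each with overlapping groups. Ccr1 ranged from 16.4 to 26.7 CPM over the 8 mice, Cxcr2 from 23.9 to 52.4 CPM and Cxcr3 from 11.2 to 23.2 CPM. Past the unadjusted p threshold were Ccr9, the gut-homing receptor that retinoic acid induces on T cells, with a log2 fold change of 0.45, Ccr8 with -0.71 and Ccr10 with -0.95. Their unadjusted p by edgeR was 0.0164, 0.0320 and 0.00295, and the FDR was 0.757 for each with Benjamini-Hochberg adjustment. Ccr9 was at 22.3, 26.2 and 27.3 CPM in tRA mice 2 to 4, above every control mouse, and at 16.3 CPM in tRA mouse 1, among the control mice.

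Of 5 atypical receptors, which bind chemokines without the usual signal, 4 passed the filter. All 4 had a log2 fold change below 0, with a median of -0.19 and 0 at an unadjusted p under 0.05 by edgeR. The median was -0.017 without tRA mouse 3 and -0.37 without tRA mouse 1, so its size rested on single libraries. Ackr3, a scavenger of Cxcl12, was at 6.12, 5.98, 6.21 and 7.08 CPM in control mice 1 to 4 and 8.58, 7.34, 4.04 and 2.90 CPM in tRA mice 1 to 4, a log2 fold change of -0.15. Ackr4, which takes up Ccl19 and Ccl21, did not pass the filter, at 0.202 to 0.367 CPM. Ccrl2, the one with the highest level per length (10.1 CPM per kb), was at 22.4, 35.0, 23.1 and 31.2 CPM in control mice 1 to 4 and 39.0, 31.8, 10.3 and 16.9 CPM in tRA mice 1 to 4, a log2 fold change of -0.19. Ackr3 and Ccrl2 were both lowest in tRA mice 3 and 4, as Ccl3, Ccl4 and Cxcl2 were.

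Of 30 other chemokine ligand genes, 29 were in the table, 13 passed the filter, and 3, Ccl11, Ccl21b and Cxcl15, had no count in any library. Among the 13, 3 log2 fold changes were above 0 and 10 below, with a median of -0.21, and 0 had an FDR under 0.1 by edgeR. At an unadjusted p under 0.05 were 2, Cxcl9 and Xcl1, the attractant of Xcr1-bearing dendritic cells. Xcl1 was at 6.20, 6.07, 5.81 and 6.59 CPM in control mice 1 to 4 and 6.14, 4.16, 3.44 and 3.45 CPM in tRA mice 1 to 4, a log2 fold change of -0.52 with an unadjusted p of 0.0185 by edgeR and an FDR of 0.757 with Benjamini-Hochberg adjustment. Its tRA mice 3 and 4 were lowest, and tRA mouse 1 lay among the control mice. Ccl6, the ligand of this list with the highest level per length (24.6 CPM per kb), was at 26.5, 49.2, 58.2 and 38.8 CPM in control mice 1 to 4 and 47.2, 45.4, 36.0 and 52.4 CPM in tRA mice 1 to 4, a log2 fold change of 0.07. Ppbp, a platelet chemokine below the filter, was the only one of the 29 with all tRA mice under all control mice, at 0.0542 to 0.122 CPM against 0.129 to 0.649 CPM. It had 24, 8, 8 and 4 counts in control mice 1 to 4 and 4, 2, 2 and 2 in tRA mice 1 to 4. Control mouse 4 and tRA mouse 1 thus had the same count, and only the scaling to library size set them apart.

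Pathways that drive these chemokines were examined as lists. Of 14 genes of the lymphotoxin and alternative NF-kB pathway, which sustains Cxcl13, Ccl19 and Ccl21a, all were tested, 7 were above 0 and 7 below, and the median log2 fold change was -0.0016. Ltb, lymphotoxin beta, had the highest level per length (296 CPM per kb) and was at 517, 406, 542 and 424 CPM in control mice 1 to 4 and 479, 423, 403 and 398 CPM in tRA mice 1 to 4, a log2 fold change of -0.15. Lta, lymphotoxin alpha, was at 31.8, 37.0, 34.0 and 36.5 CPM in control mice 1 to 4 and 24.6, 30.2, 29.0 and 30.6 CPM in tRA mice 1 to 4, and all tRA mice lay below all control mice. Its log2 fold change was -0.28, with an unadjusted p of 0.00882 by edgeR and an FDR of 0.757 with Benjamini-Hochberg adjustment. Nfkb2, the pathway's NF-kB subunit, also had all tRA mice below, with a log2 fold change of -0.11 (FDR 0.791).

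Of 15 genes of the interferon gamma pathway, which induces Cxcl9 and Cxcl10, all were tested, 8 were above 0 and 7 below, and the median log2 fold change was 0.05. Jak1, a kinase of the receptor, had the highest level per length (98.6 CPM per kb) and a log2 fold change of 0.07. Ifng, which encodes the cytokine, was at 15.8, 14.8, 17.9 and 14.1 CPM in control mice 1 to 4 and 15.2, 10.5, 7.75 and 9.20 CPM in tRA mice 1 to 4, with tRA mouse 1 among the control mice and the other tRA mice below them. Its log2 fold change was -0.55, with an unadjusted p of 0.0125 by edgeR and an FDR of 0.757 with Benjamini-Hochberg adjustment. It was the only gene of this list past that p.

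Of 16 genes of the toll-like receptor and classical NF-kB pathway, which induces Ccl2, Ccl3, Ccl4 and Cxcl2, 15 were tested, 6 were above 0 and 9 below, and the median log2 fold change was -0.06. Nfkbia, an inhibitor that NF-kB itself induces and the one with the highest level per length (213 CPM per kb), was at 426, 399, 345 and 328 CPM in control mice 1 to 4 and 480.4, 339.7, 188 and 237 CPM in tRA mice 1 to 4, a log2 fold change of -0.27. Il1b, the cytokine interleukin 1 beta, is in the same list and was at 94.1, 151, 118 and 144 CPM in control mice 1 to 4 and 216, 162, 62.8 and 110.2 CPM in tRA mice 1 to 4. In both, tRA mouse 1 was highest and tRA mouse 3 lowest, as in Ccl3, Ccl4, Cxcl2 and Ccl2. Irak3, an inhibitor of toll-like receptor signaling, and Ikbkb, a kinase that activates NF-kB, had all tRA mice above all control mice, with log2 fold changes of 0.24 and 0.13. Their unadjusted p by edgeR was 0.00883 and 0.0680, and the FDR was 0.757 and 0.778 with Benjamini-Hochberg adjustment.

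Dendritic and plasma cells, which bear receptors for several of the 10 chemokines, were followed by lists of 8 and 5 genes. Dendritic cell genes, led by Ccr7, summed to 456, 398, 391 and 463 CPM in control mice 1 to 4 and 558, 413, 364 and 332 CPM in tRA mice 1 to 4, with 2 above 0, 6 below and a median log2 fold change of -0.12. This sum was highest in tRA mouse 1 and lowest in tRA mice 3 and 4, as Ccl3, Ccl4 and Cxcl2 were, and most of it was Ccr7 (mean 259 CPM). The mean centred log2 CPM of the 8 was instead lowest in tRA mouse 1 (-0.26) and was 0.12 in tRA mouse 3. The part of dendritic cells in the chemokine levels was not tested. Plasma cell genes, led by Jchain, the joining chain of secreted immunoglobulin, summed to 983, 948, 947 and 1148 CPM in control mice 1 to 4 and 869, 1002, 745 and 755 CPM in tRA mice 1 to 4, with 3 above 0, 2 below and a median of 0.0093. By edgeR 1 of these 13 genes, Jchain, had an unadjusted p under 0.05.

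Levels of the 10 chemokines were compared with one another per length, as CPM per kb of exon averaged over the 8 mice. Ccl5 was highest at 82.9 ± 9.31 CPM per kb (SD, n = 8), followed by Ccl3 at 49.8 ± 14.7, Ccl4 at 34.4 ± 13.3, Cxcl2 at 13.7 ± 7.25 and Ccl2 at 3.92 ± 1.76. Then came Cxcl13 at 0.981 ± 0.813 CPM per kb, Cxcl10 at 0.785 ± 0.170, Ccl21a at 0.257 ± 0.181, Cxcl12 at 0.195 ± 0.123 and Ccl19 at 0.0242 ± 0.0436. The ranges over the 8 mice overlapped between every pair of neighbours in this order. Each homeostatic chemokine was under the 5 inflammatory ones from Ccl5 to Ccl2 on this scale, and Cxcl10 lay among the homeostatic ones. Among all 39 ligands with a row in the table, Ccl5, Ccl3 and Ccl4 were the top 3. Length counted every base in any annotated exon of a gene, 8176 for Cxcl12 and 870 for Ccl21a. In CPM alone Cxcl12 averaged 1.59 over the 8 mice, above Cxcl13 at 1.13 and Ccl21a at 0.224, so its rank depends on this choice of length.

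The genome places several of the 10 side by side. Ccl3 and Ccl4 lie 13228 bp apart on chromosome 11 on opposite strands (GRCm38), and Ccl5 lies 117325 bp from Ccl3. Ccl19 and Ccl21a lie 16282 bp apart on chromosome 4. Ccl2 overlaps Gm17268 on the opposite strand, Cxcl10 overlaps Art3, and Ccl19 and Ccl21a overlap 4930578G10Rik. The sources used here do not give whether strand was used in counting, so reads from such partners cannot be told apart. Gm17268 and 4930578G10Rik had no count, and Art3 had 94 in all against 473 for Cxcl10.

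Copies of some members limit their counts. Of the stretches of 50 bases in Ccl21a transcripts, 71.6% occur in 4 other genes, Gm13304, Gm21541, Ccl21b and Gm10591, each of which had no count. For Ccl19, 52.0% occur in 4 others, Ccl19-ps1, Gm2564, Ccl19-ps3 and Gm12407. Gm12407 had 9 counts in all and Ccl19-ps1 had 4, against 6 for Ccl19, and the other 2 had none. The counts of Ccl19-ps1 were 1 in control mouse 1 and 3 in tRA mouse 3, which hold 5 of the 6 of Ccl19. For Cxcl2, 5.8% occur in Cxcl3. The counts of Ccl21a and Ccl19 are therefore uncertain, and reads from the copies may be missing from them or added to them. The other 7 shared no such stretch with another gene.

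Promoters are shown for Ccl3 and Cxcl2, which were both highest in tRA mouse 1 and lowest in tRA mice 3 and 4, and for Cxcl10, the other inflammatory chemokine with a promoter in the table. RefSeq promoters (GRCm38.p6) were matched by symbol for 7 of the 10 chemokines, Ccl3, Cxcl2, Cxcl10, Cxcl12, Cxcl13, Ccl19 and Ccl21a, and the 250 bases before the start were searched on both strands. The motifs were the NF-kB site, AP-1 (TGANTCA), the interferon-stimulated response element (GAAANNGAAA), TATAAA and the retinoic acid response elements DR5 and DR2. Among 32851 promoters of this length, an NF-kB match is present in 7.25%, AP-1 in 6.75%, the interferon element in 2.98%, TATAAA in 12.4%, DR5 in 0.0883% and DR2 in 0.174%. A match is a description of letters and not a site in use. Capitals mark NF-kB and AP-1 matches here, each on its gene's strand from 5′ to 3′. The regions are chr11:83649379-83649628 (minus strand) for Ccl3, chr5:90903649-90903898 (plus strand) for Cxcl2 and chr5:92348890-92349139 (minus strand) for Cxcl10.
Ccl3: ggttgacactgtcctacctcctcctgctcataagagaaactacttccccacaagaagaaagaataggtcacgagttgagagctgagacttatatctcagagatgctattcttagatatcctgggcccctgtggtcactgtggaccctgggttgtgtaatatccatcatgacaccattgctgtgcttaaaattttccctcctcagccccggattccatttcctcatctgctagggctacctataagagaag
Cxcl2: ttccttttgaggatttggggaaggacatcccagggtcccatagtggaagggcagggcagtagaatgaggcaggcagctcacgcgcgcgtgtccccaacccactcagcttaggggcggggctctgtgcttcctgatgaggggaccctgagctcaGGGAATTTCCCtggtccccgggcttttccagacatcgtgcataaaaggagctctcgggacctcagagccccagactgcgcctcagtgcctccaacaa
Cxcl10: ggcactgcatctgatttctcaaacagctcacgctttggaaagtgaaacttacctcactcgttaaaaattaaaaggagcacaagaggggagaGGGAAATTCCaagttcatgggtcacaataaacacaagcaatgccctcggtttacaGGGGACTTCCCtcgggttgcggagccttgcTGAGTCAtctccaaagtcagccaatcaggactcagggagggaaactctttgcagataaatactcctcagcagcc

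Cxcl2 held NF-kB letters from -97 to -88 and, on the other strand, from -96 to -87, which overlap, counted back from the RefSeq start. The last 28 bases of its window fall inside the gene as GENCODE M21 draws it. Cxcl10 held NF-kB letters from -159 to -150 and an overlapping pair from -104 to -95 and -103 to -94, AP-1 letters from -74 to -68 and interferon element letters from -213 to -204. In the Ccl3 window none of the motifs was found, which says only that these letters are not in these 250 bases. Among the homeostatic chemokines, Ccl19 had the interferon element letters from -208 to -199, in a window of which 212 bases lie inside the GENCODE gene, and Cxcl13 had TATAAA from -46 to -41. Cxcl12 and Ccl21a had no match, and DR5 and DR2 were found in none of the 7.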

How the data were processed

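The deposited table holds raw counts per gene for 8 libraries of total splenocyte RNA (TruSeq v2, RNA integrity above 8, 1 HiSeq2500 lane). According to the methods, the authors used ea-utils and Btrim for trimming, Bowtie2 and Tophat2 for alignment to an Ensembl genome and HTSeq for counting, whereas the submitters' processing notes name STAR 2.5.2b, featureCounts 1.5.1, DESeq2 1.26.0 and GRCm38. How reads that match several genes were counted, and whether strand was used, is not given in the sources used here. A deposited DESeq2 table of means, fold changes and p-values for tRA against control was not used.

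Genes were compared in edgeR 4.0.16 under R 4.3.3 (filterByExpr with a minimum of 10, TMM, quasi-likelihood test, Benjamini-Hochberg over all genes tested, FDR under 0.1). CPM used TMM library sizes, and log2 CPM a prior count of 2. Of 51826 identifiers, 51633 had a GENCODE M21 entry. Replicates of a group differed by more than sampling noise (chi-square per degree of freedom 14.1 to 72.5). Named were the 10 chemokines, their receptors, and, of 6 lists of chemokine and pathway genes, the gene with the highest level per length, those with an unadjusted p under 0.05 and those whose groups do not overlap. Also named were the 3 genes nearest to each chemokine with a standard deviation of log2 CPM over 0.3. From 13 marker lists, and as illustrations from the others, genes such as Fos, Atf3, Hspa1a, Kdr, Clu, C4b, Nfkbid and Il1b were chosen after their values were seen. The chemokines and lists were chosen with earlier results of these data known. Alternatives were DESeq2 1.42.0, limma-voom (limma 3.58.1), robust empirical Bayes, RLE or library size normalization, no filter, at least 10 counts in every sample, an FDR under 0.05, the replicate number as a block and each library left out. Leaving out control mouse 3 and tRA mouse 3 was added after seeing the data. The edgeR fit was tested on simulated data. Figures were drawn with matplotlib 3.10.9.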

Additional observations from a re-analysis of the deposited data

Results flagged for a closer look

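Cxcl10 in control mouse 1 was at 1.30 CPM, while the other 3 control mice lay between 2.02 and 2.12 CPM. On the log2 CPM scale its gap to the nearest of them took up a share of 0.906 of the range of the group, above the critical value of Dixon's test for 4 samples at 95%. The 72 groups of 4 examined gave 1 such value, where chance gives about 1 in 20, or 3.6. The value rests on 48 counts, and its cause was not tested.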

How the results depend on the processing

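No chemokine that was tested was called in any alternative. All 10 were tested by DESeq2 and without the filter on low counts, and 8 or 9 in the other alternatives. Genes called at an FDR under 0.1 were 0 by edgeR, 27 by DESeq2, 1 by limma-voom, 6 without the filter on low counts and 0 to 3 with 1 library left out, with 3 called without tRA replicate 4. Of 136 refits of single chemokines, 120 kept their direction, and of 323 refits of list medians, 276 kept their sign and 47 reversed it. The medians that reversed were those of lymphotoxin and alternative NF-kB pathway genes (9 of 17), interferon gamma pathway genes (2 of 17), toll-like receptor and classical NF-kB pathway genes (1 of 17), fibroblastic reticular stroma genes (4 of 17), follicular dendritic cell genes (4 of 17), endothelium genes (1 of 17), monocyte and macrophage genes (5 of 17), natural killer and cytotoxic T cell genes (8 of 17), B cell genes (4 of 17), plasma cell genes (8 of 17) and erythroid genes (1 of 17). Ccl4 and Cxcl10 stayed below 0 in each of the 17 alternatives.

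With 1 library left out, the log2 fold change ran from -0.14 to 0.42 for Ccl2, from -0.47 to 0.046 for Ccl3, from -0.77 to -0.080 for Ccl4, from -0.17 to -0.024 for Ccl5, from -0.34 to -0.069 for Cxcl10, from -0.47 to 0.36 for Cxcl2, from -0.32 to 0.85 for Cxcl12 and from -0.53 to 1.03 for Cxcl13. List medians ran from -0.89 to -0.29 for immediate early and heat shock genes, from -0.50 to -0.12 for neutrophil genes, from -1.11 to -0.75 for neutrophil precursor genes, from -0.37 to -0.017 for atypical receptors, from 0.081 to 0.19 for chemokine receptors, from -0.32 to -0.14 for other ligands, from -0.27 to -0.035 for dendritic cell genes, from 0.080 to 0.19 for T cell genes, from -0.16 to 0.85 for erythroid genes and from -0.05 to 0.27 for endothelial genes. Cxcl2 was at -0.41 by limma-voom. Without control mouse 3 and tRA mouse 3, Ccl2 was at 0.60, Ccl3 at 0.10 and Ccl5 at 0.0033. Without tRA replicate 1, 2 of the chemokines, Ccl3 and Ccl4, and 2105 genes had an unadjusted p under 0.05 by edgeR, against 0 and 1070 with all libraries. Without control replicate 3, Cxcl12 did. The cause of these changes was not tested.

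Control and tRA libraries share replicate numbers, and correlations of the deviations of same-numbered mice were 0.157, -0.023, -0.014 and 0.259. Mice of different numbers were not compared in this way, so these values cannot decide whether the numbers pair the mice. With a replicate block, 0 genes and 0 of the chemokines were called, 1200 genes had an unadjusted p under 0.05 and Cxcl2 was at -0.35.

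Depth limits Ccl19 and Ccl21a, with 6 and 62 counts in all, and Cxcl10, Cxcl12 and Cxcl13, with 311 to 473.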
